A study of Mus musculus with 8 samples.

Results

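Protocadherins are cadherin-type adhesion proteins of the cell surface, and the mouse genome holds one of their largest families in a single stretch of chromosome 18. The members described here were all protein-coding genes whose GENCODE symbol starts with Pcdh. The rule found 71 genes, and all 71 were among the 22430 genes of the deposited table. They comprise 15 alpha (Pcdha), 22 beta (Pcdhb) and 22 gamma (Pcdhg) genes of the clustered loci, and 12 non-clustered genes. RNA was sequenced from brain hemispheres of male C57Bl/6JRj mice at 6 months (6m, 4 young adults) and at 24 months (24m, 4 aged animals), with no genotype or treatment that differs between the ages. The hemisphere was homogenized whole, so cell types were not separated, and fewer cells of a type and less RNA per cell cannot be told apart in these data. Polyadenylated RNA was made into directional libraries and sequenced in pairs on an Illumina instrument.

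The clustered protocadherins are best known in neurons, where each cell draws its own small set of them and matching sets on facing membranes recognise one another, a system used in self-avoidance of dendrites and axons and in neuronal survival. In the alpha and gamma loci each gene owns a large first exon with a promoter of its own, which encodes the extracellular part, and splices it to a set of exons common to the whole locus that encode the cytoplasmic end. Beta genes have no common exons and are complete in themselves. Promoter choice depends on CTCF, cohesin and DNA methylation, and the last genes of the alpha and gamma loci, called C-type (Pcdhac1, Pcdhac2, Pcdhgc3, Pcdhgc4, Pcdhgc5), are controlled differently from the rest. Non-clustered protocadherins are single genes with restricted patterns in brain regions and cell types.

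Libraries held 63460940 to 103462414 counts, and the deepest, 24m replicate 1, stood apart from the other aged libraries. Its mean Spearman rho was 0.979 with the other 24m libraries and 0.978 with the 6m libraries, against 0.995 among 24m replicates 2 to 4. It held the lowest 24m value of most members that rose, so counts of called genes are also given without it, as are the values of named genes whose call or direction changed without it. All 40 marker genes of neural, glial, vascular, choroid plexus and blood cells were detected in all 8 libraries, as whole brain tissue gives. The 5 astrocyte markers summed to 414 to 461 counts scaled to 1000000 per library (CPM) in 6m and 863 to 1010 CPM in 24m, with 4 called higher and none lower. The 7 neuronal markers summed to 3410 to 3810 CPM and 3890 to 4050 CPM, with 3 called higher and 1 lower. The 4 microglial markers summed to 110 to 115 CPM in 6m and 137 to 159 CPM in 24m, with 2 called higher. The 2 markers of oligodendrocyte precursors summed to 19.4 to 20.5 CPM and 29.1 to 44.6 CPM, with 1 called higher. The 3 blood markers fell, from 2910 to 4070 CPM to 663 to 2210 CPM. Sums of the oligodendrocyte, endothelial, choroid plexus, meningeal and neuroblast lists overlapped between ages. The part of these shifts in the changes of protocadherin genes was not tested.

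The comparison asked which protocadherin genes differ in abundance between 24m and 6m. Genes were called with the edgeR quasi-likelihood test, where the p adjusted over the 16730 genes tested (Benjamini-Hochberg) was 0.05 or less and the log2 fold change (log2FC, 24m over 6m) was 0.58 or more in size. All 71 members passed the filter on low counts, although Pcdhb1 passed through its 24m libraries alone, so that its rise was set by the filter. Of the 71, 43 were called higher at 24m and 2 lower, beside a background of 25.3% of all genes called higher and 18.3% called lower. Without Pcdhb1 the first count was 42 of 70. In alpha 1 of 15 genes was called higher, in beta 13 of 22 were higher and 1 lower, in gamma 22 of 22 were higher, and among non-clustered genes 7 of 12 were higher and 1 lower. The median log2FC was -0.18 in alpha, 0.81 in beta (0.79 without Pcdhb1), 0.65 in gamma and 0.81 in non-clustered genes, against -0.003 over all genes tested. Without Pcdhb1, all 24m libraries lay above all 6m libraries in 37 of 70 members and all below in 2, where 28.4% and 26.8% of all genes did so. Without 24m replicate 1, the calls were 1 of 15 in alpha, 15 of 21 tested and none lower in beta, 22 of 22 in gamma, and 9 of 12 higher with 1 lower among non-clustered genes. In that fit 28.2% of all genes were called higher and 21.6% lower.

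**Figure D1:**
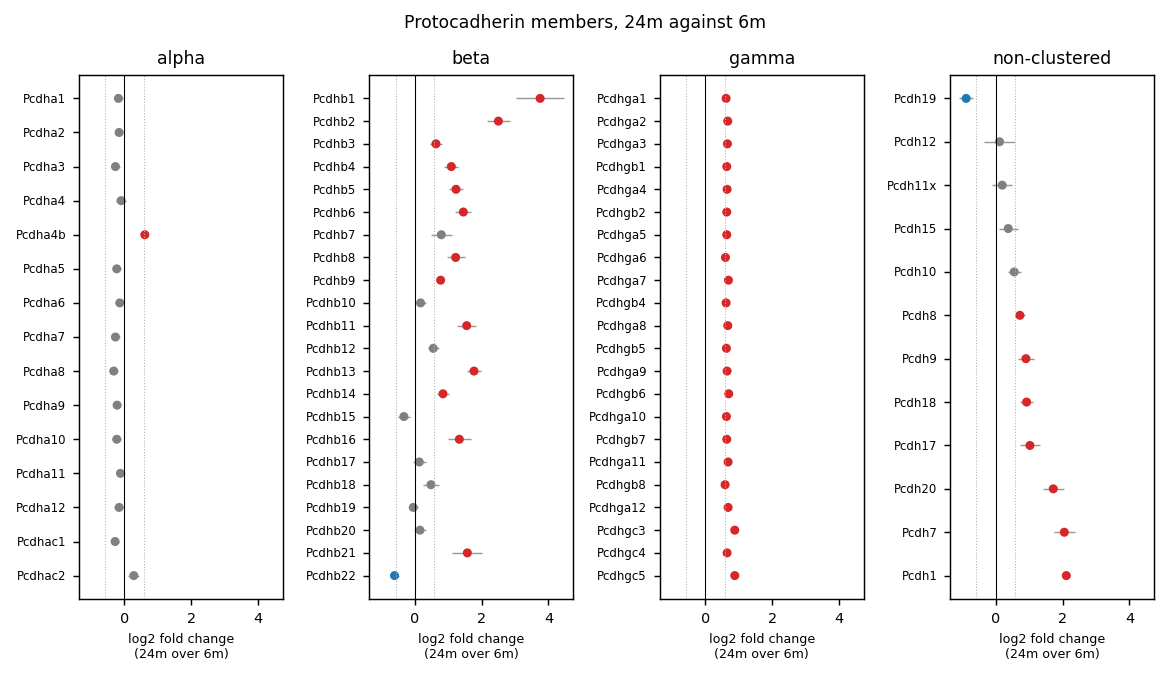
Log2FC (24m over 6m, x axis) of each member (y axis) with its standard error, by locus; alpha, beta and gamma members stand in chromosome order. Red points were called higher, blue lower and grey not called, and dotted lines mark the 0.58 threshold in both directions. The point of Pcdhb1, which passed the filter through 24m alone, is plotted but not read. Gamma points line up between 0.59 and 0.88, alpha points other than Pcdha4b and Pcdhac2 lie just left of 0, and beta and non-clustered points are spread.

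The alpha genes share exons with one another, as do the gamma genes, which bears on how their calls read. Members of a locus had similar counts within a library. In 6m replicate 1 the 14 alpha genes other than Pcdha4b ran from 2607 to 2964 counts and the 22 gamma genes from 10229 to 11703. The ratio of the highest to the lowest member was 1.14 to 1.20 in alpha and 1.12 to 1.15 in gamma in the 6m libraries, and 1.48 to 1.81 in alpha and 1.36 to 1.42 in gamma in the 24m libraries. The annotation gives the alpha genes 3 common exons on chr18 of GRCm39, at 37289208 to 37289266, 37292318 to 37292406 and 37317999 to 37320710, which sum to 2860 bp and are shared by 14 genes. The gamma genes share 37958074 to 37958132, 37966318 to 37966406 and 37972956 to 37974923, which sum to 2116 bp in 22 genes. Similar counts of this kind arise when a fragment on a common exon is counted once for every gene that holds the exon. The option used for counting is not given in the sources used here, so this reading of the counts was not tested. Pcdha4b is a gene model with 2410 bp inside the exons of Pcdha4 and 446 bp inside the common gamma exons. It had 10300 counts in 6m replicate 1, where Pcdha4 had 2962 and the gamma gene Pcdhgb8 had 10229, although Pcdhgb8 holds all 2116 bp of the common gamma exons in the annotation used here. Why the 2 counts are alike was not tested. Its call (log2FC 0.61 ± 0.09 SE, edgeR adjusted p = 0.000337) is therefore not read as a change of the alpha locus, and without 6m replicate 1 it was 0.55 and under the threshold. The 22 gamma calls, and likewise the alpha values, are therefore not treated as separate observations.

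**Figure D2:**
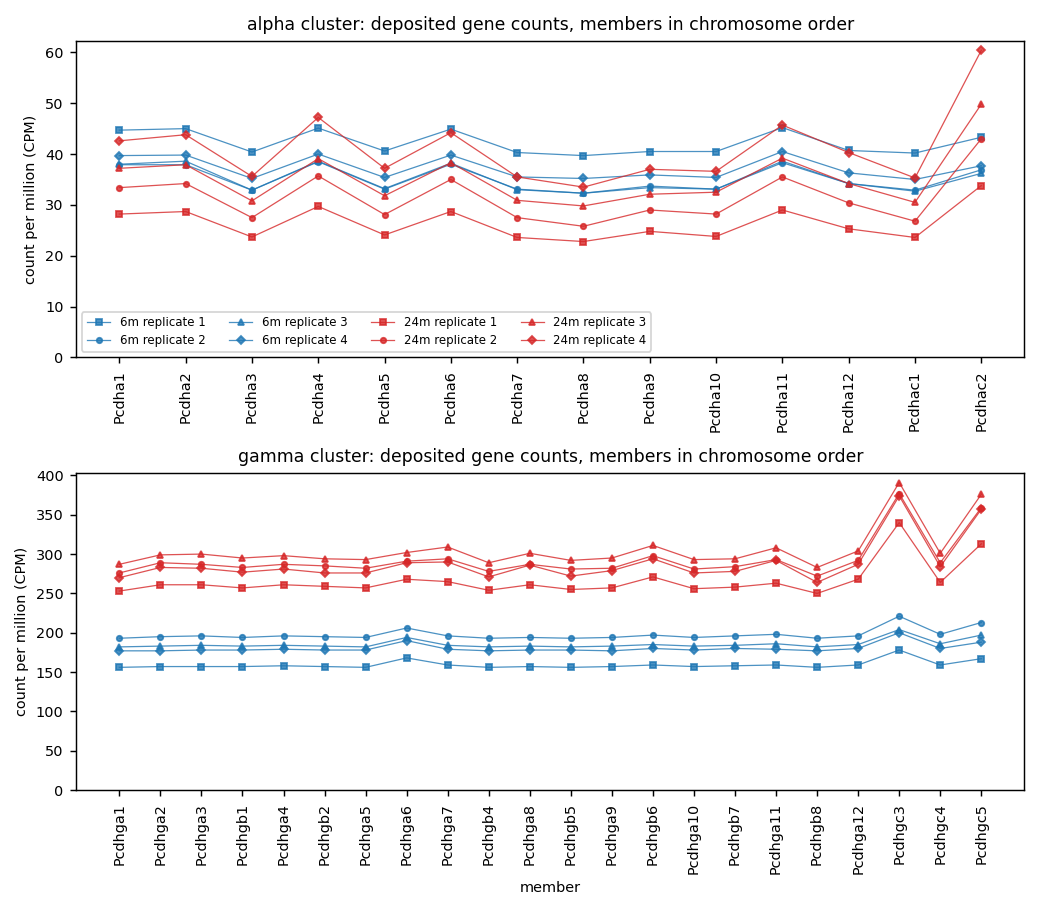
Deposited gene counts in CPM (y axis) of alpha members without Pcdha4b (top) and gamma members (bottom) in chromosome order (x axis), 1 line for each library, blue for 6m and red for 24m. In alpha the 5 genes with a second spliced 3′ end (Pcdha1, Pcdha2, Pcdha4, Pcdha6, Pcdha11) stand above the genes around them and Pcdhac2 rises at the end, in gamma Pcdhga6, Pcdhgc3 and Pcdhgc5 stand above the rest in 6m, the 6m and 24m lines overlap in alpha, and in gamma the 24m lines lie between 250 and 391 CPM, above all 6m lines at 156 to 221 CPM.

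The lowest member of a locus gives an upper limit to the count that all members have in common. In gamma the lowest over the summed libraries was Pcdhgb8. It stood at 156, 193, 182 and 177 CPM in 6m replicates 1 to 4 and at 250, 272, 283 and 264 CPM in 24m replicates 1 to 4. The ages did not overlap, and the log2FC was 0.59 ± 0.09 SE (edgeR adjusted p = 0.000387), close to the threshold. Without 6m replicate 1 it was 0.54, and 15 of 22 gamma genes were then called, as also with the trend over gene length removed. In alpha the lowest by the same measure was Pcdha8, at 39.7, 32.3, 32.3 and 35.2 CPM in 6m and at 22.8, 25.8, 29.8 and 33.5 CPM in 24m. These ranges overlap, and the log2FC of -0.32 ± 0.13 SE missed the threshold (edgeR adjusted p = 0.0544, and 0.105 without 24m replicate 1). The difference between the loci was not tested.

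The excess over the lowest member, a member's count minus that of the lowest, was computed after the similar counts had been seen. Its zero is set by the reference gene, and Pcdha8 and Pcdhgb8 were picked from these values and also have the lowest log2FC of their loci, so that a higher excess or ratio at 24m is in large part fixed by that choice. Values are therefore given as a description, with no fold change, test or count of genes that differ by age. For 5 alpha genes with a second spliced 3′ end in the annotation (Pcdha1, Pcdha2, Pcdha4, Pcdha6, Pcdha11), the lowest of these, Pcdha1, was subtracted instead of Pcdha8. The summed excess of alpha genes was 9.95, 12.7, 12.2 and 6.73 CPM in 6m and 23.4, 40.7, 39.8 and 60.9 CPM in 24m. In gamma it was 73.1, 102, 78.2 and 67.5 CPM in 6m and 351, 460, 492 and 526 CPM in 24m. Replicate 1 was the lowest of the aged libraries in both loci. Pcdhgb8 ends 91 bp before the other 21 gamma genes in the annotation, so a part of each gamma excess can come from that common 3′ end, and the size of that part is not known. Own first exons lie at the 5′ end of the mRNA and common exons at the 3′ end. Coverage along transcripts cannot be read from gene counts, and its part in these values was not tested.

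Pcdhgc3, a C-type gene, had the highest excess of the gamma genes in every library. This gene, which has been tied to dendrite growth in cortical neurons, had an excess of 22.5, 28.2, 22.3 and 22.8 CPM in 6m and of 90.3, 104, 108 and 110 CPM in 24m. Its whole count was 201 ± 17.6 CPM at the young age and 371 ± 21.4 CPM at the aged (SD, n = 4), with log2FC 0.88 ± 0.09 SE (edgeR adjusted p = 6.8e-05). Relative to Pcdhgb8 it stood at 1.12 to 1.15 in 6m and 1.36 to 1.42 in 24m. Pcdhgc5, also C-type, had an excess of 10.9, 19.8, 14.6 and 10.5 CPM in 6m and of 63.2, 86.7, 93.6 and 92.9 CPM in 24m. Its whole count gave a log2FC of 0.88 ± 0.10 SE (adjusted p = 0.000104), and its ratio to Pcdhgb8 was 1.06 to 1.10 in 6m and 1.25 to 1.35 in 24m. Pcdhgc4, the gamma gene required for survival of many neurons, had 3.43, 4.84, 3.90 and 3.04 CPM of excess in 6m and 13.9, 16.9, 17.8 and 19.4 CPM in 24m, within the range of the A- and B-type genes.

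Among the A- and B-type gamma genes, Pcdhga1, first in the locus, had 0.107, 0.0990, 0 and 0 CPM above Pcdhgb8 in 6m, where negative differences were set to 0, and 2.61, 3.88, 4.51 and 6.18 CPM in 24m. Pcdhga6 had the highest 6m excess of these genes, at 12.3, 12.9, 12.1 and 13.1 CPM, and 18.3, 19.2, 19.1 and 24.9 CPM in 24m. Its ratio to Pcdhgb8 overlapped between ages, at 1.07 to 1.08 in 6m and 1.07 to 1.09 in 24m. Pcdhgb6 went from 3.06, 4.23, 3.32 and 2.65 CPM of excess to 20.7, 26.3, 28.1 and 29.7 CPM. Pcdhga4 and Pcdhgb1 had 36.1% and 30.6% of their read-length windows outside the common exons identical to another member, so their values cannot be fully separated.

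In alpha the C-type gene Pcdhac2, which serotonergic axons need for their spacing, had the highest excess. Its whole count was 43.3, 36.9, 36.2 and 37.7 CPM in 6m and 33.8, 43.0, 49.8 and 60.4 CPM in 24m, which overlap, and it was not called (log2FC 0.28 ± 0.16 SE, edgeR adjusted p = 0.153). Over the alternatives its log2FC ran from 0.13 to 0.51, under the fold threshold in all of them. Its excess was 3.55, 4.62, 3.93 and 2.54 CPM in 6m and 10.9, 17.2, 20.0 and 27.0 CPM in 24m. Its ratio to Pcdha8 was 1.07 to 1.14 in 6m and 1.48 to 1.81 in 24m. The neighbouring C-type gene Pcdhac1 had an excess of 0.442, 0.594, 0.382 and 0 CPM in 6m and 0.763, 1.02, 0.636 and 1.85 CPM in 24m. Pcdha4 had 0.427, 0.552, 0.630 and 0.348 CPM of excess in 6m and 1.49, 2.25, 1.92 and 4.60 CPM in 24m. The excess of Pcdha7 overlapped between ages, with a highest 6m value of 0.778 CPM and a lowest 24m value of 0.763 CPM. The whole counts of Pcdha4 (log2FC -0.10 ± 0.14 SE), Pcdha7 (-0.27 ± 0.13 SE) and Pcdhac1 (-0.28 ± 0.13 SE) were not called, with adjusted p of 0.548, 0.0961 and 0.0907. With library totals alone, where the median of all genes tested was 0.214 in place of -0.003, the alpha median was 0.05.

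**Figure D3:**
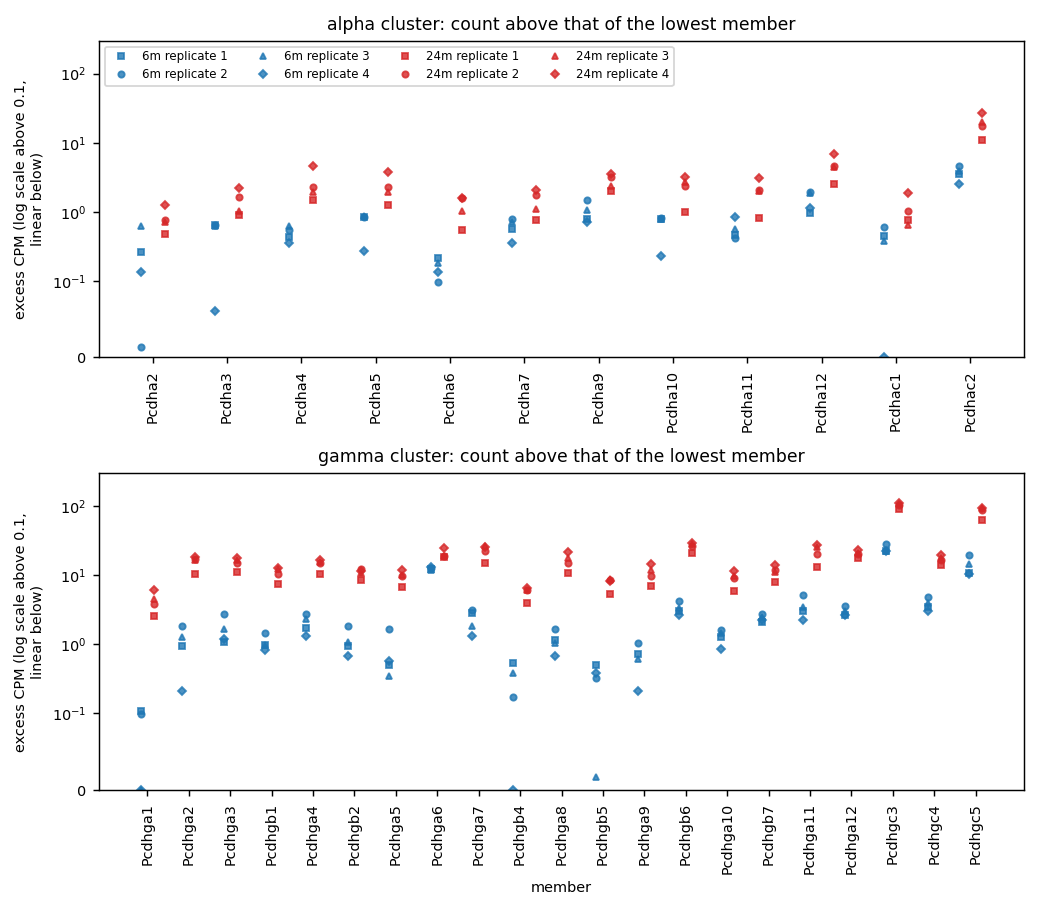
Count above that of the lowest member, in CPM (y axis, logarithmic above 0.1 and linear below), for each alpha gene (top) and gamma gene (bottom) in every library, blue for 6m and red for 24m. The gamma values of 24m lie above those of 6m, in a comparison with the member of the lowest log2FC, and Pcdhac2 and Pcdhgc3 reach the highest levels of their loci.

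The 22 beta genes have no set of exons common to the locus. An exception to separate exons is the last pair, Pcdhb21 and Pcdhb22, whose gene models overlap by 455 bp on the same strand, so their counts may hold reads of one another. They sit between the alpha and gamma loci, from 37397991 to 37657532 on chr18 (GRCm39). Summed over the locus, beta counts were 71.7, 79.3, 80.1 and 70.0 CPM in 6m replicates 1 to 4 and 82.6, 115, 119 and 142 CPM in 24m replicates 1 to 4. All 24m sums lay above the 6m sums, although 24m replicate 1 by a small margin. In 10 of the 22 genes (9 of 21 without Pcdhb1) the ages did not overlap with 24m above, and in 1 with 24m below, beside 28.4% and 26.8% of all genes.

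Pcdhb9 was the most abundant beta gene and held 13.5, 16.4, 14.6 and 13.2 CPM in 6m and 21.1, 24.5, 25.2 and 27.4 CPM in 24m. All 4 aged libraries were above all young ones, with a log2FC of 0.77 ± 0.11 SE (edgeR adjusted p = 0.000395). It fell to 0.54, under the threshold, with the trend over GC content removed. Pcdhb2 had 0.427, 0.495, 0.464 and 0.484 CPM in 6m and 1.25, 2.45, 2.57 and 4.37 CPM in 24m. The young libraries were tight and the aged ones spread over more than their lowest value (log2FC 2.50 ± 0.35 SE, adjusted p = 0.000307). Pcdhb13 went from 1.39, 1.88, 1.87 and 1.23 CPM to 3.83, 5.92, 5.31 and 6.71 CPM (log2FC 1.77 ± 0.21 SE, adjusted p = 0.000148). Pcdhb11 went from 0.838, 1.07, 1.16 and 0.757 CPM to 1.55, 2.91, 2.69 and 4.06 CPM (log2FC 1.55 ± 0.28 SE, adjusted p = 0.00127). Both were separated by age in all libraries, with 24m replicate 1 the lowest of the aged. Pcdhb1 was close to the detection limit, with 0, 2, 0 and 0 counts in 6m and 9, 11, 9 and 14 counts in 24m. It passed the filter through 24m alone, so its ratio is plotted with the other members but not read. Without it 12 of 21 beta genes were called higher.

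The beta genes were also counted in 2 stretches along the chromosome. Of Pcdhb2 to Pcdhb14, 10 of 13 were called higher and none lower, with a median log2FC of 1.09. Of Pcdhb15 to Pcdhb22, 2 of 8 were higher and 1 lower, with a median of 0.14, beside 25.3% and 18.3% of all genes. The boundary was drawn after the values were seen, and the Spearman rho of log2FC with order along the chromosome was -0.461 over the 21 genes other than Pcdhb1. This is a description over genes measured in the same libraries. Pcdhb22, the last beta gene, was the one called lower, at 6.84, 5.80, 6.12 and 6.23 CPM in 6m and 3.51, 4.29, 4.35 and 4.28 CPM in 24m. The ages did not overlap (log2FC -0.61 ± 0.12 SE, edgeR adjusted p = 0.00169), but without 24m replicate 1 the value was -0.52 and without 6m replicate 1 it was -0.56, both short of the fold threshold, as was the -0.38 with library totals alone. Pcdhb15, at 2.12 ± 0.143 and 1.68 ± 0.345 CPM (6m and 24m, SD, n = 4), was not called (log2FC -0.33 ± 0.17 SE, adjusted p = 0.112), although it was with quantile normalization and DESeq2 (-0.65). Pcdhb19 was at 4.68 ± 0.238 and 4.51 ± 0.688 CPM (log2FC -0.05 ± 0.14 SE, adjusted p = 0.741), and its sign turned without 24m replicate 1 (0.07) and with library totals alone (0.17). Pcdhb21 (log2FC 1.57), called higher, and Pcdhb22, called lower, share the overlap of 455 bp, and 6.7% and 4.72% of their read-length windows were identical to another member. In Pcdhb12, which was not called, 1927 of 3034 exonic bp are overlapped by a gene on the other strand.

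**Figure D4:**
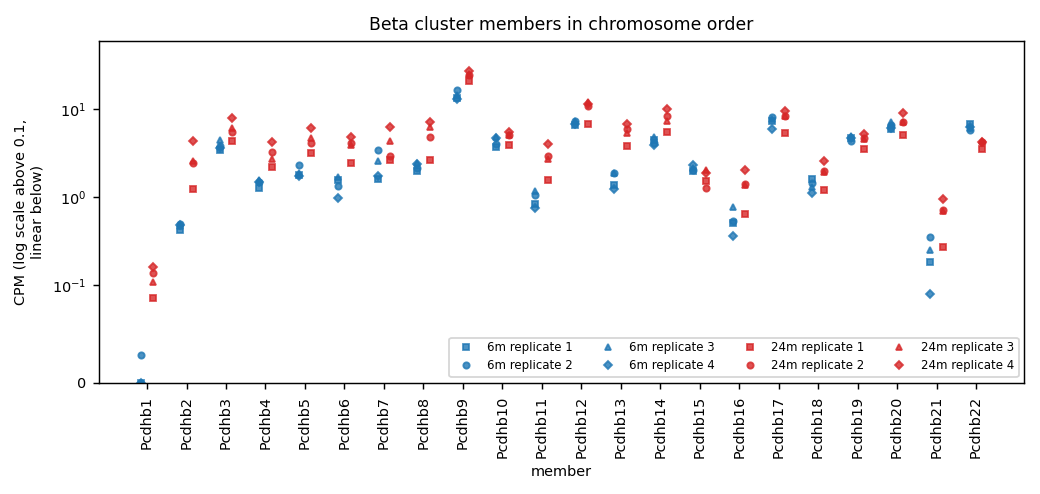
CPM (y axis, logarithmic above 0.1 and linear below) of each beta gene in chromosome order (x axis) in every library, blue for 6m and red for 24m, with marker shapes for replicates. Red points lie above blue ones for most genes up to Pcdhb14, overlap them at most genes from Pcdhb15 on, and lie below them at Pcdhb22; the squares of 24m replicate 1 are the lowest red points at nearly every gene.

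Of the 12 non-clustered genes, 7 were called higher and 1 lower. Over all loci, at least 26 of the 71 members have exonic bases overlapped by a gene on the other strand. Among them are Pcdh8 (2108 of 4538 bp), Pcdh7 (2540 of 17344 bp) and Pcdhgc3 (at least 1560 of 5591 bp). Bases held by another gene of the same strand, such as the common exons, were not counted here. Since the handling of strand in counting is not given in the sources used here, reads of such pairs cannot be told apart. Pcdh1 (chr18, 38318963 to 38345869, GRCm39, minus strand), an adhesion protein of neurons and epithelia, was at 30.5, 34.9, 31.0 and 34.1 CPM in 6m and at 111, 146, 155 and 154 CPM in 24m. Its ages lay far apart, with a log2FC of 2.11 ± 0.12 SE and the lowest adjusted p of the 71 members (edgeR, 1.26e-05). Pcdh7 (chr5, 57875004 to 58290581, GRCm39, plus strand), an adhesion protein of brain and heart, was at 3.51, 5.81, 5.14 and 4.30 CPM in 6m and at 8.87, 20.1, 19.9 and 28.7 CPM in 24m. The aged libraries all lay above the young, with replicate 1 nearest to them (log2FC 2.05 ± 0.32 SE, adjusted p = 0.000527). Pcdh20 (chr14, 88694835 to 88708832, GRCm39, minus strand) went from 2.27, 3.03, 2.97 and 1.89 CPM to 4.19, 8.08, 8.41 and 12.8 CPM (log2FC 1.72 ± 0.31 SE, adjusted p = 0.00112). These 3 rises stayed past both thresholds under all 20 alternatives tried.

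Pcdh19 (chrX, 132483609 to 132589819, GRCm39, minus strand), the gene mutated in an epilepsy that affects girls, was the one non-clustered gene called lower. It held 14.6, 12.6, 13.1 and 15.9 CPM in 6m and 5.15, 7.28, 7.28 and 10.7 CPM in 24m. The ages did not overlap (log2FC -0.89 ± 0.20 SE, edgeR adjusted p = 0.00371), and the call held under all 20 alternatives, from -1.33 to -0.65.

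The 250 bases before the annotated start of Pcdh7, Pcdh20 and Pcdh19 are shown for their base composition, from the RefSeq promoter table (build GRCm38.p6). Pcdh7 and Pcdh20 were the 2 most raised genes among the members whose windows were looked up and found. Pcdh19 was taken as the non-clustered gene called lower. Of the members looked up, windows were found for 9, all of them non-clustered. The clustered genes and some non-clustered genes were left out of the search, so whether the table holds their windows was not tested. Capitals mark the letters CGCT on either strand (AGCG on the other), the core of an element found in many clustered protocadherin promoters. Pcdh7 lies at chr5:57717831-57718080 on the plus strand, Pcdh20 at chr14:88471397-88471646 on the minus strand and Pcdh19 at chrX:133688994-133689243 on the minus strand, all in GRCm38.p6.
Pcdh7: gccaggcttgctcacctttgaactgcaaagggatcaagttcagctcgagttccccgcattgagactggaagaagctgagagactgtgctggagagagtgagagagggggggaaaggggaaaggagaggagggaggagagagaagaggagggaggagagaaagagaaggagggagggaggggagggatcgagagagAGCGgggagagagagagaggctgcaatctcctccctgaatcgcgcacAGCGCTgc
Pcdh20: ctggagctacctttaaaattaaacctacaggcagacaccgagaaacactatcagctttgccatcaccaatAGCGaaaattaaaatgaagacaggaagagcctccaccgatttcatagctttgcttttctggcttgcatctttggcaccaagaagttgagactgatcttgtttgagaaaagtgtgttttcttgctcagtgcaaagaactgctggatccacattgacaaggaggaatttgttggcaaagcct
Pcdh19: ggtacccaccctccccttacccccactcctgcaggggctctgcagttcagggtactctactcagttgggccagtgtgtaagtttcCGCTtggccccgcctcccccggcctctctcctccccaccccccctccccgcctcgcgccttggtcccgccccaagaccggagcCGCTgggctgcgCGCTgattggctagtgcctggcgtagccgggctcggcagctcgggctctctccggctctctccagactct

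The Pcdh19 window held 16 CpG and 69.2% G or C, that of Pcdh7 held 7 and 58.4%, and that of Pcdh20 held 3 and 42.4%. Over the 32851 windows of the table the medians were 6 CpG and 52.4%. The letters CGCT stood in all 10 windows of the 9 members, with 3 occurrences in Pcdh7, 1 in Pcdh20 and 3 in Pcdh19, some of them overlapping, and in 55.7% of all windows of that length. A match of these letters is a description of the sequence and not a site. Pcdh1 and Pcdh12 were left out of the window search, as were the clustered genes. Pcdh1 had a larger log2FC (2.11) than Pcdh7 (2.05), and Pcdhb2 (2.50) and Pcdhb13 (1.77) had larger ones than Pcdh20 (1.72).

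The other 4 non-clustered genes called higher were Pcdh17, Pcdh9, Pcdh8 and Pcdh18. Pcdh17, a presynaptic protein of corticobasal ganglia circuits, was at 7.62, 7.84, 8.09 and 6.96 CPM in 6m and at 7.17, 14.4, 15.6 and 24.9 CPM in 24m. Replicate 1 of 24m lay inside the young range and the other aged libraries above it (log2FC 1.02 ± 0.30 SE, edgeR adjusted p = 0.0136, and 1.28 without that library). Pcdh9 had the same shape, at 22.9, 20.5, 19.8 and 16.5 CPM in 6m and at 21.2, 39.5, 37.4 and 50.5 CPM in 24m (log2FC 0.90 ± 0.23 SE, adjusted p = 0.00653). Neither was called with the trend over gene length removed, at 0.49 for Pcdh17 and 0.53 for Pcdh9. Pcdh8, also known as arcadlin and induced by neuronal activity, was at 27.4, 33.2, 33.1 and 30.5 CPM in 6m and at 34.7, 51.0, 57.6 and 61.5 CPM in 24m. All aged libraries were above the young ones (log2FC 0.72 ± 0.16 SE, adjusted p = 0.00396). Pcdh18, which binds the adaptor Dab1, went from 1.28, 1.49, 1.56 and 1.24 CPM to 2.09, 2.37, 2.38 and 3.73 CPM (log2FC 0.92 ± 0.20 SE, adjusted p = 0.00323).

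Pcdh10, which recruits the WAVE actin complex in growing axons, was the most abundant non-clustered gene in 6m by CPM and was not called. It stood at 50.3, 59.4, 58.7 and 54.9 CPM in 6m and at 50.4, 82.3, 88.7 and 105 CPM in 24m, with 24m replicate 1 among the young libraries. The log2FC was 0.55 ± 0.19 SE (edgeR adjusted p = 0.0285), short of the fold threshold. It was called without that library (0.74), with library totals alone (0.78) and with quantile normalization and DESeq2 (0.61), and was -0.07 with the trend over gene length removed. Pcdh15, known from the tip links of hair cells, was at 1.80 ± 0.479 CPM and 2.33 ± 0.793 CPM (SD, n = 4; log2FC 0.37 ± 0.29 SE, adjusted p = 0.292), and without 24m replicate 1 it was called at 0.61. With the length trend removed its sign turned (-0.33). Pcdh11x was at 1.56 ± 0.198 and 1.78 ± 0.843 CPM (log2FC 0.19 ± 0.30 SE, adjusted p = 0.606) and Pcdh12, a protein of vascular endothelium, at 0.115 ± 0.0337 and 0.127 ± 0.0602 CPM (0.11 ± 0.46 SE, adjusted p = 0.842). For both the direction depended on the alternative used. The 4 endothelial markers summed to 34.5 to 51.7 CPM in 6m and 24.7 to 37.2 CPM in 24m, with 1 called higher and 1 lower.

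**Figure D5:**
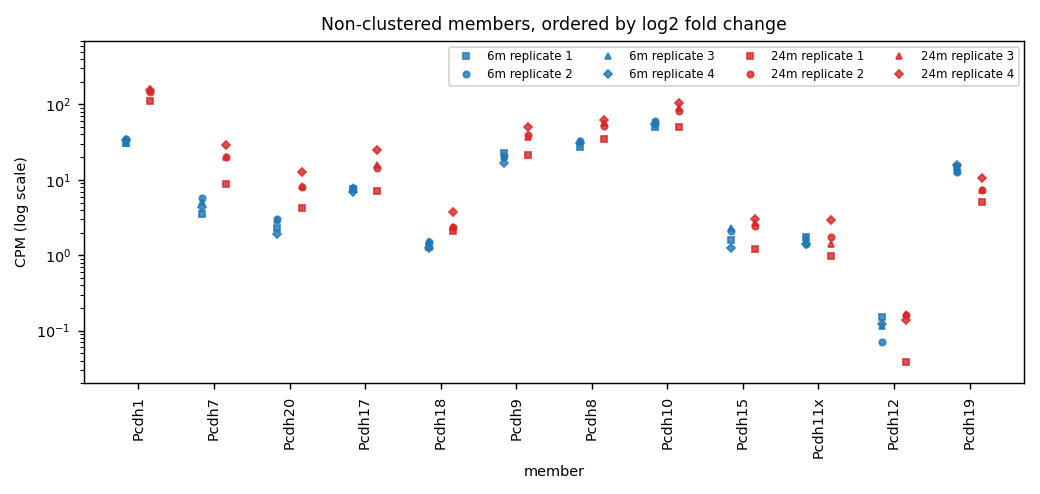
CPM (y axis, logarithmic) of the 12 non-clustered genes (x axis, from the highest to the lowest log2FC) in every library, blue for 6m and red for 24m. Pcdh1, Pcdh7, Pcdh20, Pcdh18 and Pcdh8 show no overlap with 24m above, Pcdh19 shows none with 24m below, and the red squares of 24m replicate 1 lie within the blue points at Pcdh17, Pcdh9 and Pcdh10.

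Levels can be compared between genes only per length, and per kilobase of exon the order among beta and non-clustered genes changed with age. In 6m the highest CPM per kilobase among beta and non-clustered genes was that of Pcdh8 (6.84), followed by Pcdhb9 (3.87), Pcdh1 (3.66) and Pcdh10 (3.19). In 24m it was that of Pcdh1 (15.9), followed by Pcdh8 (11.3), Pcdhb9 (6.58) and Pcdh10 (4.67). For the gamma genes the excess over Pcdhgb8 can be set per kilobase outside the common exons. It was 6.89 for Pcdhgc3, 4.63 for Pcdhga6 and 2.46 for Pcdhgc5 in 6m, and 29.7, 7.48 and 14.9 in 24m. In 24m Pcdhgb6 (9.67) and Pcdhga11 (7.9) also stood above Pcdhga6. These values of excess per kilobase are a description, since the reference gene sets their zero. In alpha, Pcdhac2 had the highest such value at both ages, 1.16 and 5.97. Among beta and non-clustered genes the lowest levels per kilobase were those of Pcdhb1 (0.00273 in 6m, 0.0476 in 24m) and Pcdh12 (0.019 and 0.0209).

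Genes that act with protocadherins were counted by list, beside the background of 25.3% of all genes called higher and 18.3% lower, and the genes named are the 2 called genes with the largest change at a mean of at least 1 CPM. Among 11 genes of CTCF and cohesin, which bring the clustered promoters to their enhancers, 5 were called higher and 1 lower. The cohesin subunit Rad21 went from 28.9 ± 5.01 to 62.6 ± 13.9 CPM (SD, n = 4; log2FC 1.11 ± 0.18 SE) and the cohesin regulator Pds5b from 5.48 ± 1.83 to 19.5 ± 7.62 CPM (1.83 ± 0.34 SE). Of 10 silencing genes 3 were higher and 1 lower. The DNA methyltransferase Dnmt3a rose from 5.03 ± 0.371 to 13.7 ± 4.67 CPM (log2FC 1.45 ± 0.23 SE), and Lrif1, a partner of the silencing protein Smchd1, fell from 9.46 ± 1.06 to 4.71 ± 0.448 CPM (-1.01 ± 0.12 SE). Of 18 intracellular partners 5 were higher and none lower, and the named genes are the WAVE complex genes Abi2 (log2FC 2.32 ± 0.32 SE) and Cyfip2 (1.28 ± 0.17 SE). Of 7 cell-surface partners 4 were higher and 1 lower, among them the axon guidance receptor Robo1 (1.75 ± 0.33 SE) and the synaptic adhesion gene Nlgn1 (1.62 ± 0.27 SE). Of 6 genes that shed and cleave protocadherins 2 were higher and 1 lower. The sheddase Adam10 had a log2FC of 1.79 ± 0.32 SE and the gamma-secretase subunit Psenen one of -0.83 ± 0.16 SE, which was -0.33 and not called with the length trend removed. Without 24m replicate 1 the counts were 6 higher and none lower, 4 and 1, 6 and 1, 4 and 1, and 2 and 1 in the order of these lists, beside 28.2% and 21.6% of all genes. All these named genes had edgeR adjusted p values of 0.00159 or less.

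Among the rest of the cadherin superfamily 17 of 41 tested genes were higher and none lower at these thresholds, their median log2FC being 0.43 (22 higher without 24m replicate 1), against 43 of 71 and 2 of 71 among protocadherins. Because gamma genes share exons, the proportions are not set against each other by a test. Fat3 (log2FC 1.92 ± 0.40 SE) and Celsr2 (1.54 ± 0.25 SE) had the largest changes of those with a mean of at least 1 CPM, with edgeR adjusted p of 0.00244 and 0.000677. The 31 genes that flank or lie between the clustered members gave 4 higher and 8 lower (25.3% and 18.3% of all genes), the same numbers without 24m replicate 1, with a median of -0.19. Among the 4 higher, Gm37388 and Gm38666 are gene models that end at 37966349, inside a common gamma exon, and both had a log2FC of 0.80, so they may hold gamma counts, which was not tested. These 2 were picked after their values were seen. Eif4ebp3 (-1.53 ± 0.18 SE) and the respiratory chain gene Ndufa2 (-1.46 ± 0.16 SE), both close to the start of the alpha locus, had the largest changes of those with at least 1 CPM (adjusted p = 0.000146 and 0.000112).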

How the data were processed

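Poly(A) RNA was sequenced from 4 brain hemispheres at 6m and 4 at 24m. The authors deposited raw counts, whole numbers for each Ensembl gene in each library. Per the submitters' processing notes, Trim Galore 0.4.11 and HISAT2 2.1.0 with assembly GRCm39 were used; the study's methods name featureCounts, and its handling of strand and of fragments that overlap several genes is not given in the sources used here. Genes were matched to a later GENCODE release of that assembly (22281 of 22430), so exon limits may differ from the authors'. Genes with over 5 counts in 4 of 8 libraries were tested with edgeR 4.0.16 (quasi-likelihood, TMM factors, age as the only term; R 4.3.3, limma 3.58.1, DESeq2 1.42.0) and Benjamini-Hochberg adjustment over 16730 genes. CPM used TMM-scaled totals. Depth was 63460940 to 103462414 counts per library. Members, lists and tests were chosen with earlier results of these data known. Named genes were all non-clustered and C-type members, per locus the most abundant member and the 3 highest and 3 lowest log2 fold changes at a mean of at least 0.5 CPM, and 2 called genes per pathway list. Excess counts are a member's count minus that of the lowest member, below 0 set to 0, chosen after seeing the data and given without a test. Alternatives were other scalings, tests and filters, left-out libraries, the replicate number as a block, and removed length or GC trends. The fit was tested on simulated data. Libraries of one age differed by 8.24 to 425 chi-square per degree of freedom, so no pair was treated as 1 library deposited more than once. The authors' normalized values were not used here.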

Additional observations from a re-analysis of the deposited data

Results flagged for a closer look

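Each named gene was checked for 1 library far from the other 3 of its age, over 92 groups of 4, of which chance alone marks about 1 in 20. In Pcdhb22 the 24m replicate 1 value of 3.51 CPM lay far below the other three at 4.28 to 4.35 CPM, with a gap of 0.915 of the range. In Celsr2 the 6m replicate 1 value of 56.1 CPM lay below the others at 61.5 to 62.6 CPM, with a gap of 0.834 of the range. Without the Pcdhb22 library that gene was no longer called (log2 fold change -0.52). Celsr2 was called under all alternatives.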

How the results depend on the processing

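Of 43 members called higher and 2 lower, the alternatives gave 35 to 47 higher and 1 to 3 lower. Leaving out 1 library gave 35 (6m replicate 1) to 47 (24m replicate 1) higher and 1 (either of these) to 2 lower. Counts over all genes moved as well. Of all genes, 4237 were called higher, against 3952 without 6m replicate 1 and 4673 without 24m replicate 1. With the length trend removed, 3568 of all genes and 35 members were called higher. Leaving out 1 library moved medians from -0.28 to -0.07 in alpha, 0.70 to 0.96 in beta, 0.59 to 0.71 in gamma and 0.66 to 0.97 in non-clustered genes. With the length trend removed, the non-clustered median was 0.51 (0.46 with the replicate block), with 5 of 12 called higher. The beta median was then 0.94 (0.91 with the block). With the GC trend removed, the beta median was 0.59 (0.58 with the block), with 10 of 22 called higher. The alpha median was then -0.36, the gamma median 0.71 and the non-clustered median 0.65. With library totals alone, 5449 of all genes were called higher instead of 4237, and 1746 lower instead of 3058. In that setting 47 members were higher and 1 lower (Pcdh19, with Pcdhb22 at -0.38). The alpha median was 0.05, the gamma median 0.87, and the beta and non-clustered medians 1.04. With quantile normalization and DESeq2 the gamma median was 0.83, the beta median 0.53, the non-clustered median 0.66 and the alpha median -0.21. In that setting 3573 of all genes were called higher and 3891 lower. Without a fold threshold 5479 of all genes were higher and 4999 lower. With library totals alone Pcdha4 was 0.13 and Pcdhb19 0.17; leaving out 1 library gave -0.22 (24m replicate 4) to 0.02 (24m replicate 1) for Pcdha4 and -0.13 to 0.07 for Pcdhb19. With the length trend removed, alone or with the replicate block, Pcdh15 was -0.33 in both, Pcdh10 -0.07 in both, Pcdh12 -0.01 and -0.05, and Pcdh11x -0.36 and -0.40. With the GC trend removed Pcdh11x was -0.13, and -0.17 with the block; it was -0.12 with quantile normalization and DESeq2 and -0.17 (without 24m replicate 4) to 0.41 (without 24m replicate 1) with 1 library left out. Pcdh12 was -0.06 with limma-voom, and -0.07 (6m replicate 2) to 0.46 (24m replicate 1) with 1 left out. The causes were not tested.

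The replicate number as a block left 43 members higher and 2 lower. Deviations of same-numbered libraries correlated at -0.348 to 0.271. Differently numbered libraries were not compared in this way, so these values do not settle whether the numbers pair libraries. Of 919 comparisons of named genes with alternatives, 869 kept direction and side of the threshold. Calls of genes near 0.1 CPM, such as Pcdh12 and Pcdhb1, are limited by depth.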
